A study of Mus musculus with 10 samples.

Results

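The unfolded protein response genes described here are 10 mouse genes: Hspa5, Hsp90b1, Dnajb9, Sdf2l1, Pdia4, Creld2, Herpud1, Xbp1, Atf4 and Ddit3. They were found in the tables by symbol, from a list drawn up with earlier results of these data known, and all 10 were found among the 23284 features of the deposited tables. All 10 were above the detection floor in 10 of 10 libraries and so were among the 13050 features tested. RNA came from the colorectum of BALB/c mice, an inbred strain, 7 weeks old, in 10 libraries, 2 in each of 5 groups. The miR-29a day 4 and miR-29b day 4 groups were given 2% dextran sodium sulfate (DSS), a polysaccharide that injures the colonic lining, and received miR-29a or miR-29b. The NC-miR day 4 group received DSS and a negative control miRNA. All these miRNAs were carried in super carbonate apatite (sCA), a nanoparticle carrier, and given by tail vein on days 1, 2 and 3, and tissue was taken on day 4. The NC-miR day 2 group is labelled with the same 3 injections, but its tissue was taken on day 2. Normal mice had neither DSS nor an injection (day 0), so that DSS, injection, carrier and day cannot be told apart in any comparison with them, and no DSS group without an miRNA was analysed here.

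When unfolded proteins build up in the lumen of the endoplasmic reticulum, 3 membrane sensors start this response. IRE1 splices the mRNA of Xbp1 into the form that encodes an active transcription factor, PERK phosphorylates the translation factor eIF2α and thereby favours translation of ATF4, and ATF6 is cut in the Golgi to release a transcription factor. Together these factors raise the genes of chaperones, folding enzymes and the degradation machinery, and prolonged ATF4 activity raises Ddit3, which encodes CHOP. In the intestine the response is known above all from secretory cells such as goblet, Paneth and plasma cells. The tables hold 1 value per gene, so spliced and unspliced Xbp1 were not separated, and the translational control of ATF4 lies outside what mRNA shows.

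The promoters of 4 of the genes are shown because they hold the endoplasmic reticulum stress response elements, sites known to bind ATF6 or XBP1 together with the CCAAT factor NF-Y. Each line gives the 250 bases before the RefSeq start of the gene (build GRCm38.p6), 5′ to 3′ on the strand of the gene, with matches to either element in capitals. The windows are chr2:34771840-34772089, + strand for Hspa5, chr10:86705445-86705694, - strand for Hsp90b1, chr15:88819396-88819645, + strand for Creld2 and chr8:94386179-94386428, + strand for Herpud1.
Hspa5: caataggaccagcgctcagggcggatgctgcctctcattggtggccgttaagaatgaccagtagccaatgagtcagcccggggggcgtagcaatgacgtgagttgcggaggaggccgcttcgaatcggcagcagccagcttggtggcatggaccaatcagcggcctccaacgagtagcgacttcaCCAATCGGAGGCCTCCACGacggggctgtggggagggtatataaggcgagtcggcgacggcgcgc
Hsp90b1: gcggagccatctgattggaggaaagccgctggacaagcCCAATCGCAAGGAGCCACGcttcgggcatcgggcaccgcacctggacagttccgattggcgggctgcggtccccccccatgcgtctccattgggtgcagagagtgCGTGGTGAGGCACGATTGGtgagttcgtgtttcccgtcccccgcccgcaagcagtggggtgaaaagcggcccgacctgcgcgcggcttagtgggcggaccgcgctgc
Creld2: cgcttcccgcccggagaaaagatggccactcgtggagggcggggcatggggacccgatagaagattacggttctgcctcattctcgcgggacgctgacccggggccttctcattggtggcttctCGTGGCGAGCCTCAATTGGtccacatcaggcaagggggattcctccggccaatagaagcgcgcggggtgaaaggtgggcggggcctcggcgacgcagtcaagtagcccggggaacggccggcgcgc
Herpud1: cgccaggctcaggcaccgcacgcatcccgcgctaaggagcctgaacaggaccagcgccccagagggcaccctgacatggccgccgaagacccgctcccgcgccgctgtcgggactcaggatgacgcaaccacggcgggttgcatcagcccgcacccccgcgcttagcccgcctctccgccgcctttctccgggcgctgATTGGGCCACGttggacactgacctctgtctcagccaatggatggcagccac
The element named ERSE (CCAAT, any 9 bases, then CCACG, on either strand) was present in 3 of the 10 promoters, against 37 of 32851 RefSeq promoters, a share of 0.113%. Hspa5 had it at positions -65 to -47 from the start. Hsp90b1 had it at -212 to -194 and, on the other strand, at -107 to -89, and Creld2 had it on the other strand at -126 to -108. The ERSE-II element (ATTGG, any 1 base, then CCACG, on either strand), present in 10 promoters or 0.0304%, was in Herpud1 at -52 to -42. Herpud1 also had the core of the amino acid response element of ATF4 (TGATGCAA, 0.791% of promoters) on the other strand at -112 to -105, and this match overlapped no other. The core TGACGTGG of the XBP1 element (0.563% of promoters) and the cAMP response element TGACGTCA (1.55%), which share 6 letters, were in none of the 10 windows. A match describes the letters only, and its absence says only that these letters are not in this window.

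The injected miRNAs are named without an arm or a sequence in the labels. The RefSeq 3p arms, the arms known as the main mature forms, are printed because they carry the same seed (bases 2 to 8, in capitals), which decides most target recognition.
mmu-miR-29a-3p: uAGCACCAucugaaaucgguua
mmu-miR-29b-3p: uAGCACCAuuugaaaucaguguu
Mir29a and Mir29b-1 lie near each other on chromosome 6, and Mir29b-2, with the same mature sequence as Mir29b-1, lies on chromosome 1. The reverse complement of the seed, in DNA letters, TGGTGCT, was found in the longest annotated 3′ UTR of 2740 of 21004 genes (13%) and in 0 of the 10 genes. Their 3′ UTRs ran from 81 bases for Atf4 to 1434 for Hspa5, against a median of 953 over all genes.

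The values are log2 values relative to a baseline of each gene, as deposited. They compare libraries within a gene and give no level that could be compared between genes. The floor, the lowest value of a feature when 2 or more libraries share it, left 12677 to 12937 features above it per library. Reads per library cannot be recovered from these values, so the depth is unknown. The labels do not say how the 2 libraries of a group were obtained beyond n = 2, so the p-values measure the spread between these samples. In whole tissue, fewer cells of a type and less RNA per cell cannot be told apart.

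None of the 10 genes passed the test in any comparison. Differences were tested with limma in 1 fit of the 5 group means, with p-values adjusted over all 13050 features and calls made under 0.05. Over the 8 comparisons and 10 genes, 80 differences in all, the smallest adjusted p was 0.1, for Herpud1 in miR-29b day 4 against normal. The unadjusted p was under 0.05 in 12 of the 80. Over all features this share was 6.41% to 15.3%, depending on the comparison. The 95% interval stayed within a fold of 2 in either direction for 75 of the 80, while the other 5 (Herpud1 in all 4 comparisons with normal mice and Dnajb9 in NC-miR day 4 against normal) reached beyond it. The intervals are not adjusted for the 13050 features, so an interval that excluded 0 did not amount to a call. With 2 libraries per group, differences could go undetected, and not only small ones. Herpud1, at 1.92-fold in miR-29b day 4 against normal, was not called. The F test over the 5 groups also called 0 of 10 genes, beside 49 of 13050 features or 0.375%, and Herpud1 had the smallest p of the 10 (F = 6.07, limma, adjusted p = 0.255) and was the only one with an unadjusted p under 0.05, as had 14.4% of features.

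**Figure D1:**
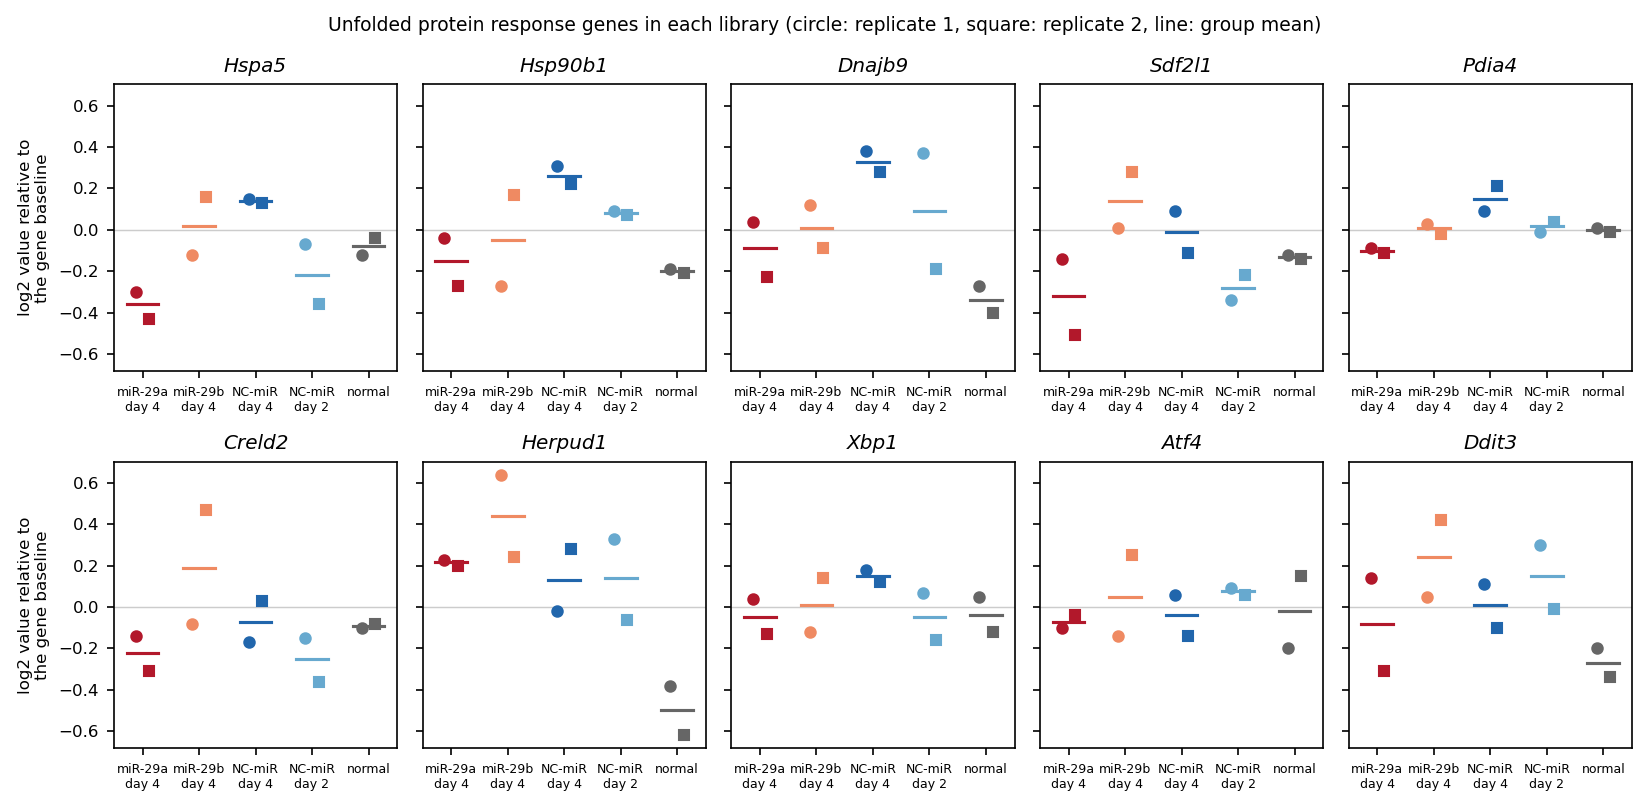
Values of the 10 unfolded protein response genes in each library, as log2 relative to the baseline of the gene (y axis), by group (x axis). Circles are replicate 1, squares replicate 2 and lines the group mean. For Herpud1 the normal libraries, at -0.38 and -0.62, lie below the other 8, while for Xbp1 all 10 libraries lie between -0.16 and 0.18.

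Hspa5 encodes BiP, the HSP70 chaperone of the endoplasmic reticulum that binds unfolded proteins and holds the sensors inactive. Its value was -0.30 and -0.43 in miR-29a day 4, -0.12 and 0.16 in miR-29b day 4, 0.15 and 0.13 in NC-miR day 4, -0.07 and -0.36 in NC-miR day 2, and -0.12 and -0.04 in normal libraries. The miR-29a libraries were thus low and did not overlap the miR-29b, NC-miR day 4 or normal libraries. By group mean the order was NC-miR day 4 (0.14), miR-29b day 4 (0.02), normal (-0.08), NC-miR day 2 (-0.22) and miR-29a day 4 (-0.36), and no pair of groups differed at the adjusted threshold.

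Hsp90b1 encodes GRP94, the HSP90 chaperone of the endoplasmic reticulum. It was at -0.04 and -0.27 in miR-29a day 4, -0.27 and 0.17 in miR-29b day 4, 0.31 and 0.22 in NC-miR day 4, 0.09 and 0.07 in NC-miR day 2, and -0.19 and -0.21 in normal libraries. The NC-miR libraries of both days lay above the normal ones, and the miR-29b replicates lay on either side of them. Dnajb9 encodes ERdj4, a J-domain partner of BiP whose gene is a known target of XBP1. It was at 0.04 and -0.23 in miR-29a day 4, 0.12 and -0.09 in miR-29b day 4, 0.38 and 0.28 in NC-miR day 4, 0.37 and -0.19 in NC-miR day 2, and -0.27 and -0.40 in normal libraries. All 8 libraries of DSS mice were above both normal libraries, although miR-29a replicate 2, at -0.23, was close to the higher normal library, at -0.27.

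Sdf2l1 encodes a subunit of chaperone complexes with BiP. It had -0.14 and -0.51 in miR-29a day 4, 0.01 and 0.28 in miR-29b day 4, 0.09 and -0.11 in NC-miR day 4, -0.34 and -0.22 in NC-miR day 2, and -0.12 and -0.14 in normal libraries. The lowest values were those of miR-29a replicate 2 and of both NC-miR day 2 libraries. Creld2 encodes a secretory pathway protein that endoplasmic reticulum stress induces. Its values were -0.14 and -0.31 in miR-29a day 4, -0.08 and 0.47 in miR-29b day 4, -0.17 and 0.03 in NC-miR day 4, -0.15 and -0.36 in NC-miR day 2, and -0.10 and -0.08 in normal libraries. The high value came from miR-29b replicate 2 alone. Pdia4 encodes ERp72, a protein disulfide isomerase. It was at -0.09 and -0.11 in miR-29a day 4, 0.03 and -0.02 in miR-29b day 4, 0.09 and 0.21 in NC-miR day 4, -0.01 and 0.04 in NC-miR day 2, and 0.01 and -0.01 in normal libraries, with the miR-29a libraries lowest and the NC-miR day 4 libraries highest.

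Herpud1 encodes HERP, a membrane protein of the complex that passes misfolded proteins to degradation. It had 0.23 and 0.20 in miR-29a day 4, 0.64 and 0.24 in miR-29b day 4, -0.02 and 0.28 in NC-miR day 4, 0.33 and -0.06 in NC-miR day 2, and -0.38 and -0.62 in normal libraries. Every library of DSS mice was above both normal libraries, with a gap of 0.32 between the lowest of the 8 and the higher normal one. Such separation was found in 749 of the 13050 features (5.74%), Dnajb9 among them, and 7.62% of features were separated in the other direction.

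Xbp1, the factor downstream of IRE1, was at 0.04 and -0.13 in miR-29a day 4, -0.12 and 0.14 in miR-29b day 4, 0.18 and 0.12 in NC-miR day 4, 0.07 and -0.16 in NC-miR day 2, and 0.05 and -0.12 in normal libraries. Atf4, the factor downstream of PERK, was at -0.10 and -0.04 in miR-29a day 4, -0.14 and 0.25 in miR-29b day 4, 0.06 and -0.14 in NC-miR day 4, 0.09 and 0.06 in NC-miR day 2, and -0.20 and 0.15 in normal libraries. For both genes the widest gap between replicates exceeded the range of the group means, and the normal replicates of Atf4 alone lay 0.35 apart. Ddit3, which encodes the pro-apoptotic factor CHOP, was at 0.14 and -0.31 in miR-29a day 4, 0.05 and 0.42 in miR-29b day 4, 0.11 and -0.10 in NC-miR day 4, 0.30 and -0.01 in NC-miR day 2, and -0.20 and -0.34 in normal libraries. Of the DSS libraries, 7 lay above both normal ones and miR-29a replicate 2 lay between them.

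**Figure D2:**
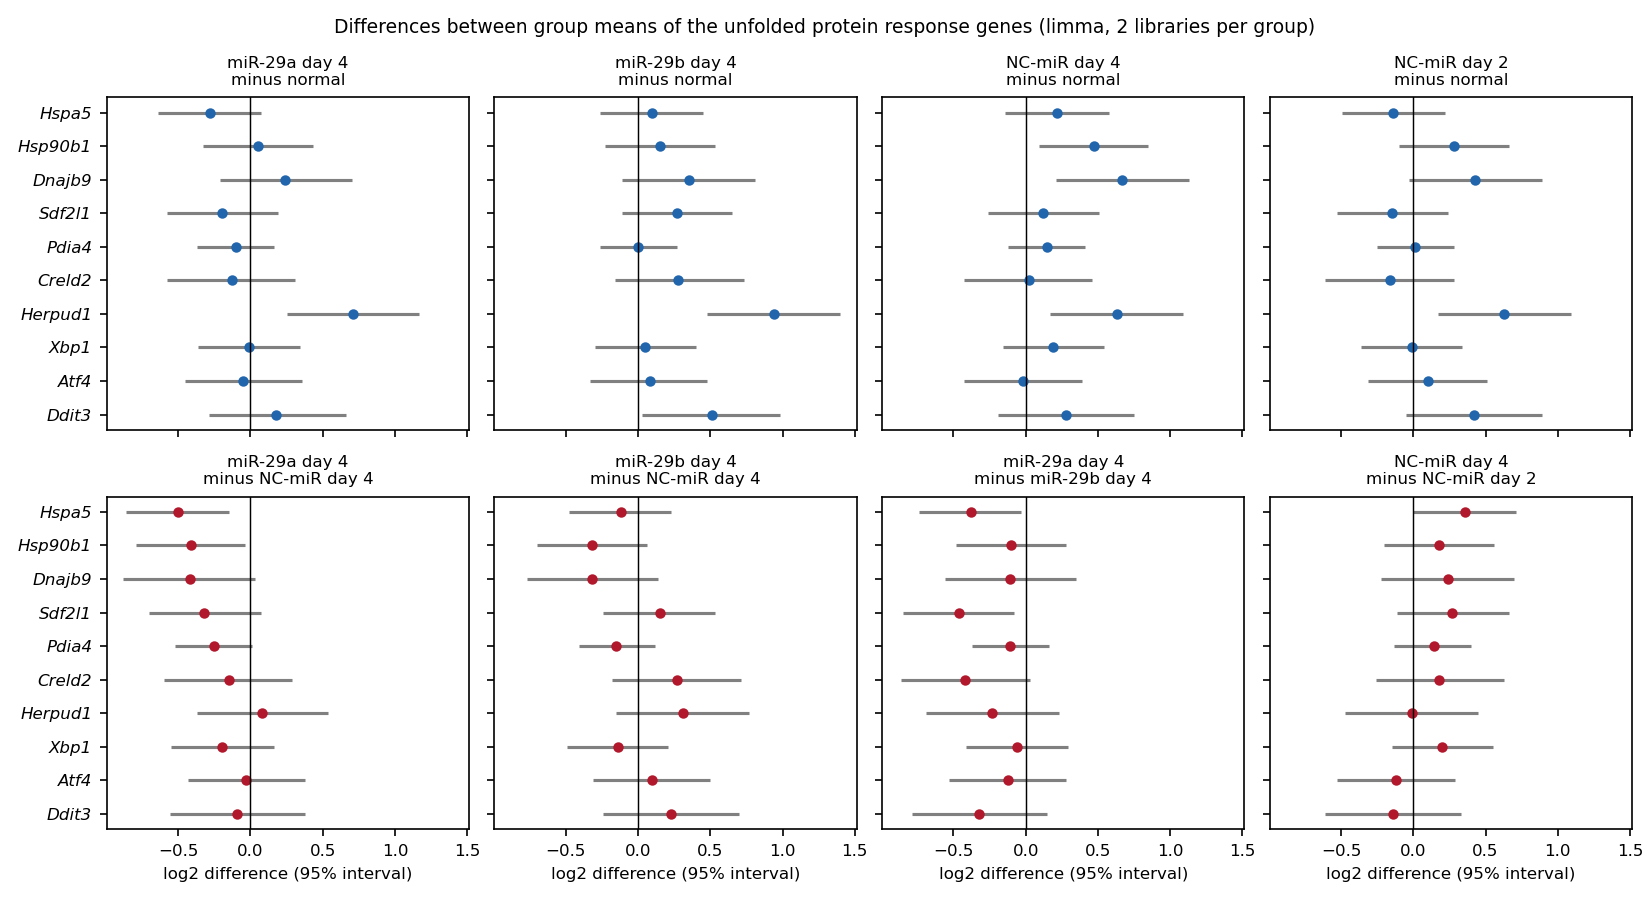
Differences in log2 value between group means (x axis) for each of the 10 genes (y axis) in the 8 comparisons, with 95% intervals from limma, 2 libraries per group. The intervals are not adjusted for the number of features, and no gene was called. Those of Herpud1 exclude 0 in all 4 comparisons with normal mice. So do Dnajb9 and Hsp90b1 in NC-miR day 4 minus normal and Ddit3 in miR-29b day 4 minus normal. Hspa5 and Hsp90b1 exclude it in miR-29a day 4 minus NC-miR day 4, and Hspa5 and Sdf2l1 in miR-29a minus miR-29b. Hspa5 in NC-miR day 4 minus NC-miR day 2 is the last.

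The comparisons with normal mice ask how the genes stood under DSS with each injection. They share the same 2 normal libraries. In miR-29a day 4 against normal, 0 of 10 genes passed (0.421% of all features did), and 1 had an unadjusted p under 0.05 (11% of all features). The signs were mixed, with 4 genes positive, 6 negative and a median of -0.03, beside -0.02 over all features. Both miR-29a libraries were above both normal ones in Herpud1 and Dnajb9 (21% of all features) and below them in Hspa5, Sdf2l1, Pdia4 and Creld2 (26% of all features). Herpud1 was higher by 0.71 ± 0.20 (SE; 1.64-fold, 95% interval 1.19 to 2.25; limma, adjusted p = 0.247), while Hspa5 was lower by a difference of -0.28 ± 0.15 (limma, adjusted p = 0.573).

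In miR-29b day 4 against normal, 0 of 10 passed (0.49% of all features) and 2 had an unadjusted p under 0.05 (15.3% of all features), although all 10 differences were positive, with a median of 0.21 beside -0.03 over all features. That median depended on the library: it was 0.32 without miR-29b replicate 1 and 0.02 without miR-29b replicate 2. In 4 of the 10 genes both miR-29b libraries were above both normal ones, as in 21.3% of all features, and in 0 genes were they below both (25.3% of all features). Herpud1 had the largest difference of the 80, 0.94 ± 0.20 (1.92-fold, 95% interval 1.39 to 2.64; limma, adjusted p = 0.1), which was 0.74 to 1.14 with 1 of the 10 libraries left out. Ddit3 differed by 0.51 ± 0.21 (1.42-fold, limma, adjusted p = 0.299), and Pdia4 by 0.00 ± 0.12.

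In NC-miR day 4 against normal, 0 of 10 passed (0.383% of all features) and 3 had an unadjusted p under 0.05 (15.2% of all features). Of the 10, 9 differences were positive and the median was 0.20, beside -0.03 over all features. In 8 of the 10 genes both NC-miR day 4 libraries were above both normal ones, as in 20.4% of all features, and in 0 genes were they below both (27.8%). The 8 were all but Creld2 and Atf4. The leading genes were Dnajb9 at 0.67 ± 0.20 (1.59-fold, limma, adjusted p = 0.187), Herpud1 at 0.63 ± 0.20 (1.54-fold, limma, adjusted p = 0.207) and Hsp90b1 at 0.47 ± 0.17 (1.38-fold, limma, adjusted p = 0.243). NC-miR day 4 replicate 1 stood apart in squamous epithelium genes: the 3 tested of 9, Krt13, Krt14 and Krtdap, had a median of 5.51 above the normal mean there and -0.05 in replicate 2, with 0.54 and 0.63 in miR-29b day 4. Of the other 6, Krt4, Sprr3, Trp63 and Dsg3 were at the floor in all 10 libraries. Without replicate 1 the median of the 10 genes was 0.19 and the difference of Dnajb9 0.62.

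In NC-miR day 2 against normal, 0 of 10 passed (1.22% of all features) and 1 had an unadjusted p under 0.05 (15.2% of all features), with 6 positive differences and a median of 0.06, beside -0.06 over all features. Herpud1 differed by 0.63 ± 0.20 (1.55-fold, limma, adjusted p = 0.197), Dnajb9 by 0.43 ± 0.20 and Ddit3 by 0.42 ± 0.21 (limma, adjusted p = 0.357 for Dnajb9 and 0.386 for Ddit3). Both NC-miR day 2 libraries were above both normal ones in 4 genes (18.6% of all features) and below them in Sdf2l1 and Creld2 (30.5% of all features). Between the 2 days of NC-miR, day 4 against day 2, 0 of 10 passed (0.0153% of all features) and 1 had an unadjusted p under 0.05 (6.41%). The median was 0.18 beside 0.02. Both day 4 libraries were above both day 2 libraries in 5 genes (19.8% of all features) and below them in Atf4 (16.1%). Hspa5 differed by 0.36 ± 0.15 (limma, adjusted p = 0.771) and Herpud1 by -0.01 ± 0.20.

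Among the comparisons that bear on the miR-29 injections, the first is miR-29a against NC-miR on day 4. Differences there were negative for all of the 10 genes but Herpud1. No feature at all passed (0%), and 7.63% of features, including 2 of the 10 genes, had an unadjusted p under 0.05. The 10 genes had a median of -0.22, beside 0.02 over all features, and 9 were negative. In 6 of the 10 both miR-29a libraries were below both NC-miR libraries, as in 19.3% of all features, and in 0 genes were they above both (22.4%). These 6 were Hspa5, Hsp90b1, Dnajb9, Sdf2l1, Pdia4 and Xbp1. Hspa5 differed by -0.50 ± 0.15 (0.706-fold, 95% interval 0.552 to 0.903; limma, adjusted p = 0.62) and Hsp90b1 by -0.41 ± 0.17 (0.75-fold, limma, adjusted p = 0.643). Dnajb9 differed by -0.42 ± 0.20, Sdf2l1 by -0.32 ± 0.17 and Pdia4 by -0.25 ± 0.12. Without NC-miR replicate 1, the library with high squamous genes, Hspa5 differed by -0.49 and the median of the 10 genes was -0.24. Xbp1 differed by -0.20 ± 0.15, Creld2 by -0.15 ± 0.19 and Ddit3 by -0.09 ± 0.21. Herpud1 was at 0.08 ± 0.20 and Atf4 at -0.03 ± 0.18. Whether the genes differed from one another in response was not tested. The NC-miR libraries used here also entered NC-miR day 4 against normal and against NC-miR day 2. The miR-29a libraries also entered miR-29a against normal and against miR-29b. These results are thus not independent of one another.

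In miR-29b against NC-miR on day 4 no feature passed (0%), and 12.5% of features but 0 of the 10 genes had an unadjusted p under 0.05. Signs were split 5 and 5, with a median of -0.01 beside 0.02. Both miR-29b libraries were below both NC-miR libraries in Hsp90b1, Dnajb9 and Pdia4 (19.5% of all features) and above them in 0 genes (22.7%). Hsp90b1 and Dnajb9 each differed by -0.32 (SE 0.17 and 0.20; limma, adjusted p = 0.452 and 0.512), Herpud1 by 0.31 ± 0.20 and Creld2 by 0.27 ± 0.19. The Creld2 value was -0.01 without miR-29b replicate 2.

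The 2 members of the miR-29 family share their seed, and the direct comparison of miR-29a against miR-29b again had no feature that passed (0%; 7.43% with an unadjusted p under 0.05, among them 2 of the 10 genes). All 10 differences were negative, with a median of -0.18 beside 0.01, and in 5 genes both miR-29a libraries were below both miR-29b libraries, as in 19.7% of all features, and in 0 genes were they above (20.3%). Sdf2l1 differed by -0.46 ± 0.17 (0.725-fold, limma, adjusted p = 0.665), Creld2 by -0.42 ± 0.19 (limma, adjusted p = 0.679) and Hspa5 by -0.38 ± 0.15 (0.768-fold, limma, adjusted p = 0.667). The 95% interval of Hspa5 ran from 0.6-fold to 0.982-fold and that of Xbp1 from 0.753-fold to 1.23-fold. The median was -0.32 without miR-29b replicate 1 and -0.14 without miR-29b replicate 2. The miR-29b group thus entered these comparisons with unlike replicates.

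Replicates of a group differed in 1 direction for most of the genes in some groups. In miR-29b day 4, 7 of 10 genes were higher in replicate 2 than in replicate 1, with a median step of 0.28. Creld2 was 0.55 higher there and Herpud1 was lower by a step of -0.40. The median absolute step of the 10 genes was 0.33, against 0.22 over all features. In miR-29a day 4 the step was positive for 1 of 10 genes and reached -0.44 for Ddit3, and in NC-miR day 2 it was positive for 2 of 10 and reached -0.56 for Dnajb9. The NC-miR day 4 and normal replicates had median absolute steps of 0.16 and 0.11, below those of all features (0.20 and 0.18).

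**Figure D3:**
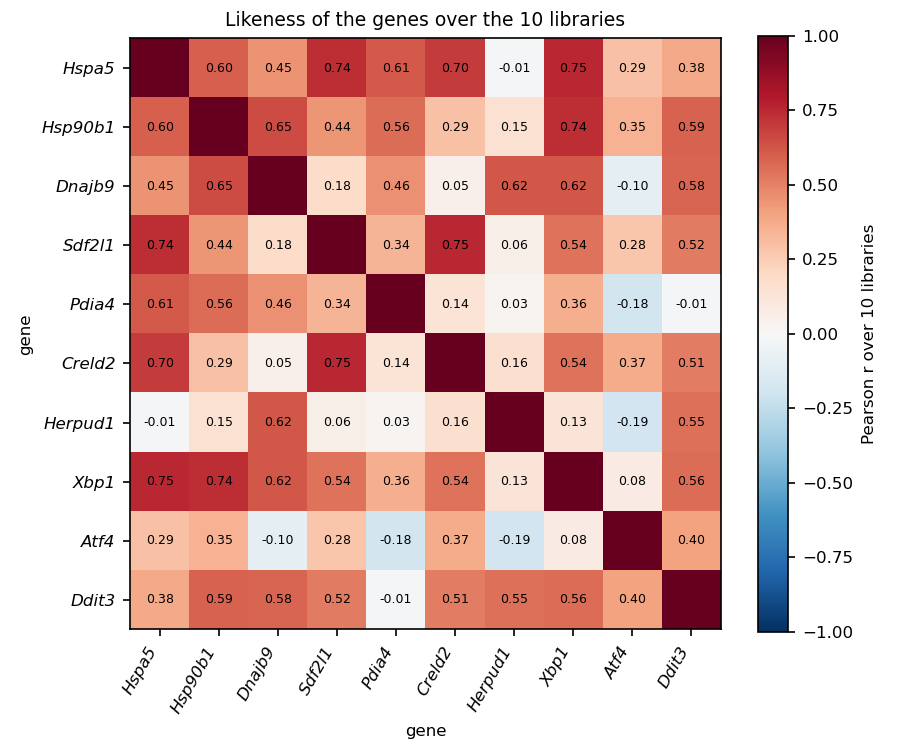
Pearson correlation of each pair of the 10 genes over the 10 libraries (colour and printed value; genes on both axes). Hspa5 with Xbp1 and Sdf2l1 with Creld2 reach 0.75, while Herpud1 with Atf4 has the lowest value, -0.19.

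Over the 10 libraries, 40 of the 45 pairs of genes had a positive Pearson r, with a median of 0.40. Pairs of other features were not summarised in this way, so no background share stands beside these values. These are descriptions over points that share library, tissue pieces and group. Of the other 9 genes, Xbp1 (r = 0.75), Sdf2l1 (r = 0.74) and Creld2 (r = 0.70) were most like Hspa5, and Hsp90b1 had r = 0.74 with Xbp1. Herpud1 had r = -0.01 with Hspa5 and 0.62 with Dnajb9. Among the 13049 other features tested, those most like Hspa5 were Pitpnb (r = 0.92), which encodes a phosphatidylinositol transfer protein, Mettl16 (0.91), an RNA methyltransferase gene, Dhx29 (0.90), a helicase gene of translation initiation, Smn1 (0.89), a gene of snRNP assembly, and Hyou1 (0.88), a chaperone gene of the endoplasmic reticulum. In the same order Xbp1 ranked 82, Sdf2l1 103, Creld2 158, Pdia4 363 and Hsp90b1 390. Dnajb9 ranked 1107, Ddit3 1566, Atf4 2452 and Herpud1 6383, near the middle of all features. Pitpnb, Mettl16, Dhx29, Smn1 and Hyou1 were picked as the highest r of 13049 over 10 libraries, so the size of their r owes in part to that choice.

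The rest of the pathway was read from 6 further lists. The chaperones and folding enzymes other than the 10 genes had 0 of 22 called in every comparison. In miR-29a against NC-miR on day 4, 17 of 22 were negative, with a median of -0.11 beside 0.02 over all features. The 3 of smallest p were the BiP partners Dnajb11 (-0.45) and Dnajc3 (-0.34) and the isomerase gene Pdia6 (-0.40), with adjusted p of 0.62, 0.626 and 0.626 by limma. In miR-29a against miR-29b, 18 of 22 were negative, led by the calreticulin gene Calr (-0.55), Hyou1 (-0.47) and Dnajb11 (-0.47; limma, adjusted p = 0.665 for each). The median was -0.13 beside 0.01, of the same sign as that of the 10 genes. Relative to the normal mean, the list median was -0.08 and -0.06 in miR-29a and -0.03 and 0.17 in miR-29b. Calr was at 0.10 and 0.49, Hyou1 at -0.00 and 0.31 and Dnajb11 at 0.02 and 0.41 in miR-29b replicates 1 and 2. Replicate 2 was thus the high one, as for the median of the 10 genes, so the 2 lists do not give separate evidence. In miR-29b against NC-miR, 14 of 22 were positive, with a median of 0.07 beside 0.02. Smallest in p were Cdk2ap2 (0.41), Dnajc3 (-0.30) and the calnexin gene Canx (-0.25). Cdk2ap2 is on the list but is named for a partner of the kinase CDK2, not as a chaperone. Against normal mice the list medians were -0.07 for miR-29a day 4, 0.05 for miR-29b day 4, 0.07 for NC-miR day 4 and 0.00 for NC-miR day 2. The 3 genes of smallest p were Manf (-0.50), Dnajb2 (-0.37) and Pdia6 (-0.23) in miR-29a day 4, and Calr (0.45), Dnajb11 (0.40) and the oxidase gene Ero1lb (-0.44) in miR-29b day 4. They were Canx (0.36), Dnajb11 (0.39) and Ero1lb (-0.48) in NC-miR day 4, and Dnajb2 (-0.44), Manf (-0.42) and Canx (0.23) in NC-miR day 2.

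The list of sensors and the proteases that activate ATF6 had 0 of 7 called in every comparison. Ern2, the IRE1 paralogue of mucosal epithelium, was above normal by 0.38 in miR-29a day 4, 0.36 in miR-29b day 4, 0.41 in NC-miR day 4 and 0.41 in NC-miR day 2, each ± 0.17 (limma, adjusted p = 0.483, 0.369, 0.317 and 0.321 in that order). Eif2ak3, which encodes PERK, differed from normal by -0.33 in miR-29a day 4, -0.27 in miR-29b day 4, -0.21 in NC-miR day 4 and -0.20 in NC-miR day 2, each ± 0.15 (limma, adjusted p = 0.485, 0.432, 0.541 and 0.589 in that order). Atf6, the gene of the sensor cut in the Golgi, differed from normal by -0.34 ± 0.15 in miR-29b day 4 (limma, adjusted p = 0.336) and by -0.26 ± 0.15 in NC-miR day 2 (limma, adjusted p = 0.465). The other gene among the 3 of smallest p was Atf6b (-0.14) in miR-29a day 4 and the protease gene Mbtps1 (-0.23) in NC-miR day 4. Against normal the list medians were -0.09 in miR-29a day 4, -0.24 in miR-29b day 4, 0.07 in NC-miR day 4 and -0.03 in NC-miR day 2. The miR-29b value was opposite in sign to that of the 10 genes (0.21), and its libraries again differed, at -0.04 and -0.36 relative to normal.

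Of the degradation genes 0 of 16 were called in any comparison. Syvn1, which encodes the HRD1 ubiquitin ligase that HERP joins, was below normal by a difference of -0.39 ± 0.12 in miR-29a day 4 and in NC-miR day 2 (limma, adjusted p = 0.279 and 0.186), and differed by -0.42 in miR-29a against miR-29b (limma, adjusted p = 0.665). Herpud1, its partner, was on the other side of normal in the same libraries. The ubiquitin-conjugating genes Ube2j1 (-0.26) and Ube2g2 (-0.31) followed in miR-29a day 4, and Derl3 (-0.88) and Ube2g2 (-0.27) in NC-miR day 2. In NC-miR day 4 the 3 of smallest p were Ube2g2 (-0.43), Derl3 (-0.78) and Syvn1 (-0.26). Derl3 was at -1.04 ± 0.34 in miR-29b day 4 relative to normal (limma, adjusted p = 0.208), followed by Ube2j1 (-0.27) and Edem2 (0.31). Derl3 is also 1 of the 8 tested genes of the plasma cell list, whose median relative to normal was -1.47 and -1.0 in the same libraries. Of these 8 genes, 5 were negative and 3 positive in miR-29b day 4 against normal. In miR-29b against NC-miR on day 4 the gene of smallest p was Edem3, a mannosidase-like gene (-0.61 ± 0.20; limma, adjusted p = 0.349), followed by Syvn1 (0.29) and Erlec1 (-0.29). After Syvn1, miR-29a against miR-29b had Derl3 (0.75) and Edem2 (-0.25). Derl3 was at 0.81 and -0.22 in miR-29a and at -0.76 and -0.16 in miR-29b, so these groups overlapped.

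None of the 17 translocation and signal peptidase genes was called in any comparison. Against normal, 16 of 17 were negative in miR-29a day 4 (median -0.15, beside -0.02 over all features), 10 in miR-29b day 4 (-0.06, beside -0.03), 12 in NC-miR day 4 (-0.10, beside -0.03) and 14 in NC-miR day 2 (-0.17, beside -0.06). The 3 of smallest p were Srp54a (-0.25), Srp9 (-0.24) and Sec61b (-0.24) in miR-29a day 4, and Spcs3 (-0.33), Srp54a (-0.19) and Sec11c (-0.24) in miR-29b day 4. They were Srp54a (-0.40), Sec61b (-0.32) and Sec11a (-0.24) in NC-miR day 4, and Srp54a (-0.39), Ssr2 (-0.32) and Sec11a (-0.27) in NC-miR day 2. Srp54a has near-identical copies in the mouse genome, so its values are uncertain. In miR-29b against NC-miR on day 4 the translocon genes Sec61b (0.48 ± 0.14) and Sec61g (0.46 ± 0.16) had the smallest p (limma, adjusted p = 0.339 and 0.349), followed by Sec11a (0.26).

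Of the ATF4 and CHOP targets 0 of 22 tested genes were called in any comparison. The other 4 of the 26 were at the floor in most or all libraries: Trib3 and Slc7a11 were above it in 0 libraries, Stc2 in 1 and Chac1 in 3. Trib3 and Chac1, textbook readouts of ATF4 with CHOP, were thus at the floor in 7 or more of the 10 libraries. Bbc3, which encodes the pro-apoptotic protein PUMA, was below normal by a difference of -1.16 in miR-29a day 4, -1.10 in miR-29b day 4, -1.18 in NC-miR day 4 and -0.62 in NC-miR day 2, each ± 0.26 (limma, adjusted p = 0.16, 0.125, 0.109 and 0.309 in that order). Cebpb, the gene of a transcription factor of inflammation and differentiation, was at 0.95 ± 0.27 in miR-29b day 4 against normal (limma, adjusted p = 0.157) and at 1.04 against NC-miR day 4 (limma, adjusted p = 0.335). The amino acid transporter gene Slc7a5 differed from normal by 0.68 in miR-29a day 4, 0.65 in miR-29b day 4 and 0.37 in NC-miR day 4, each ± 0.23 (limma, adjusted p = 0.333, 0.246 and 0.479 in that order). Slc3a2, which encodes its heavy chain partner, was at -0.73 ± 0.21 in NC-miR day 4 (limma, adjusted p = 0.184). Nars, a tRNA synthetase gene, was at -0.34 in miR-29a day 4 and -0.38 in NC-miR day 2, and Vldlr, a lipoprotein receptor gene, at -0.36 in NC-miR day 2. Against NC-miR, miR-29b also had Shmt2 (0.56) and Cth (-0.24). The list medians against normal lay between -0.05 and 0.00 in the 4 comparisons.

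The other eIF2α kinases and the phosphatase subunits gave the only call among these lists, in 1 of 5 genes. Eif2ak2, which encodes the interferon-inducible kinase PKR, rose in NC-miR day 2 against normal. It was at 1.24 and 0.39 in NC-miR day 2 and at -0.62 and -0.53 in normal libraries, a difference of 1.39 ± 0.24 (limma, adjusted p = 0.0388). It was at -0.45 and -0.31 in miR-29a day 4, -0.38 and -0.49 in miR-29b day 4 and 0.29 and 0.22 in NC-miR day 4. The NC-miR libraries of both days were thus the high ones. The next genes by p in NC-miR day 2 were the phosphatase subunit genes Ppp1r15b (0.33) and Ppp1r15a (0.46), which did not pass. The call was lost in 12 of 17 alternatives, among them the omission of any 1 library other than NC-miR day 2 replicate 2, with an adjusted p between 0.00166 and 0.233 over the omissions.

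**Figure D4:**
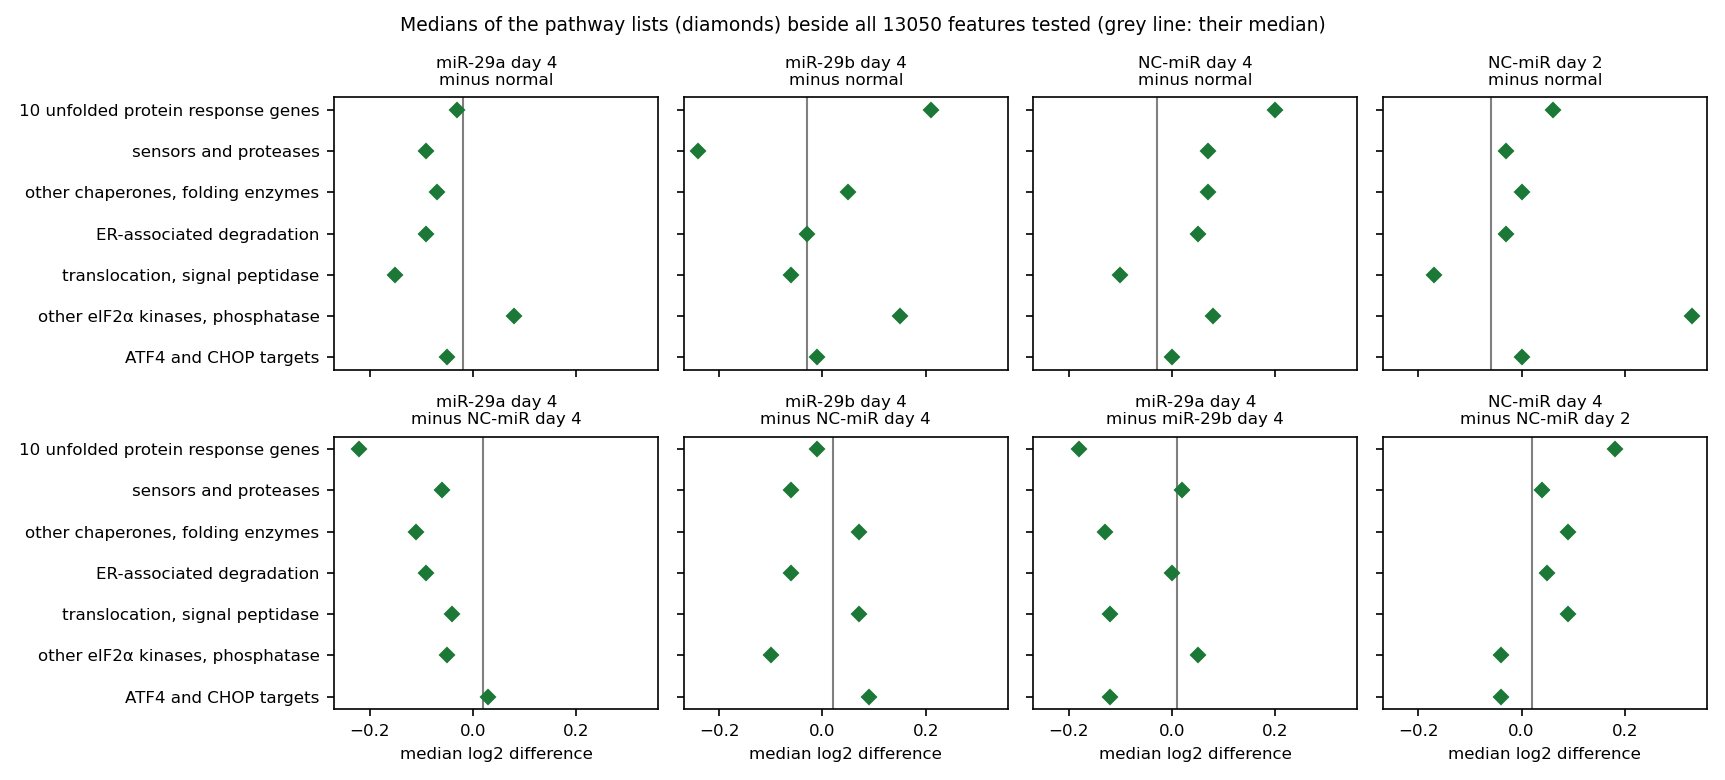
Median log2 difference (x axis) of the 10 genes and of the 6 further lists (y axis, diamonds) in each of the 8 comparisons, beside the median of all 13050 features tested (grey line). The median of the 10 genes is 0.21 in miR-29b day 4 minus normal, 0.20 in NC-miR day 4 minus normal, 0.18 in NC-miR day 4 minus NC-miR day 2, -0.22 in miR-29a day 4 minus NC-miR day 4 and -0.18 in miR-29a minus miR-29b.

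Markers of the cell types that carry much of this response in the gut had medians that varied with the groups, and their part in the values above was not tested. Plasma cell markers (8 of 9 found, all 8 tested, 0 called) had a median relative to the normal mean of 0.11 and -0.96 in miR-29a day 4, -1.47 and -1.0 in miR-29b day 4, -0.99 and -0.51 in NC-miR day 4, -1.07 and -0.80 in NC-miR day 2, and -0.05 and 0.05 in normal libraries. The median was low in 7 of the 8 libraries of DSS mice, although 2 or 3 of the 8 genes were positive in each comparison with normal. Goblet cell markers (8 of 9 found and tested, 0 called) had 0.14 and 0.26 in miR-29a day 4, 0.58 and 0.67 in miR-29b day 4, 0.35 and 0.19 in NC-miR day 4, 0.17 and 0.14 in NC-miR day 2, and 0.07 and -0.07 in normal libraries. They were highest in the miR-29b libraries. Muc2 and Mzb1, markers of the 2 lists, were not analysed here.

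The absorptive colonocyte markers, which define the labelled tissue, were above the floor in 10 of 10 libraries for all 7 genes. Their median was 0.83 and 0.96 above the normal mean in miR-29a day 4, 0.71 and 0.90 in miR-29b day 4, 0.58 and 0.99 in NC-miR day 4 and 0.33 and 0.41 in NC-miR day 2, and normal libraries had 0.12 and -0.12. Of the 7 genes, the anion exchanger gene Slc26a3 (1.34, limma, adjusted p = 0.0294) and the aquaporin gene Aqp8 (1.84, limma, adjusted p = 0.0347) rose in miR-29a day 4 against normal. Car1, a carbonic anhydrase gene (2.05, limma, adjusted p = 0.0336), and Slc26a3 (1.13, limma, adjusted p = 0.0486) rose in miR-29b day 4. These calls were lost in many of the 17 alternatives: 10 for Slc26a3 and 12 for Aqp8 in miR-29a day 4, and 11 for Car1 and 14 for Slc26a3 in miR-29b day 4. All 4 were lost with no filter and with the groups compared alone, Slc26a3 in both comparisons also under quantile normalization, and Aqp8 and the miR-29b call of Slc26a3 under a replicate block. Among omissions of 1 library, Slc26a3 in miR-29a day 4 kept its call only without either miR-29b library or without NC-miR day 4 replicate 1, Aqp8 and Car1 kept theirs only without normal replicate 1, and Slc26a3 in miR-29b day 4 lost it under all 10 omissions. The highest adjusted p over the omissions was 0.218 for Slc26a3 and 0.217 for Aqp8 in miR-29a day 4, and 0.149 for Car1 and 0.257 for Slc26a3 in miR-29b day 4. The 2 tested neutrophil genes, S100a8 and S100a9, had a median relative to normal of 0.94 and 0.59 in miR-29a day 4, 1.88 and 2.62 in miR-29b day 4, 0.70 and 1.43 in NC-miR day 4 and 4.32 and 1.29 in NC-miR day 2, and normal libraries had 0.22 and -0.22. Smooth muscle, fibroblast and macrophage lists had library medians within -0.32 and 0.46 of the normal mean. Adipocyte markers ran from 0.04 to 1.64 in the 8 libraries of DSS mice, against -0.77 and 0.77 in normal libraries. Enteric neuron and glia markers (3 of 5 tested) ran from -0.81 to 0.20 there, against -0.17 and 0.17 in normal libraries.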

How the data were processed

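RNA of 10 mouse colorectum libraries was made with a stranded mRNA kit, per the labels' protocols. The aligner TopHat2 2.0.13, Bowtie2 2.2.3, SAMtools 0.1.19, Cuffnorm 2.2.1 and the build mm10 are given, with no settings, in the submitters' processing notes. The header calls the value column FPKM, but the deposited values are log2 values relative to a baseline of each gene, which is not stated. Low values share a floor, so differences of weak genes are understated. A feature was tested where both libraries of some group were above that floor (13050 of 23284).

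The 5 group means were fitted with limma 3.58.1 in R 4.3.3 (5 residual degrees of freedom, prior 3.26). P-values were two-sided and adjusted by Benjamini-Hochberg over all tested features, with calls under 0.05. Intervals are 95% intervals from the same fit. The limma fit was tested on simulated data, for the comparison of NC-miR day 4 with normal.

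The 10 genes, the lists and the comparisons were chosen with earlier results of these data known. Named were all 10 genes, the genes of each other list with the 3 smallest p in the comparisons described for that list and any that passed, and the 5 features most correlated with Hspa5. Marker genes are given as lists, with those named that the text turns on. Alternatives were other scalings, no filter, robust limma, pairwise fits, a replicate block and the omission of each library. Promoters and miRNAs came from RefSeq tables of GRCm38.p6, and 3′ UTRs from GENCODE M21.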

Additional observations from a re-analysis of the deposited data

How the results depend on the processing

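None of the 10 genes was called in any of 161 results (8 comparisons and the F test, in the main fit and the alternatives that gave them). The smallest adjusted p among these by limma was 0.0994. Most settings gave all their results from 1 fit, and the settings share libraries, so the 161 are not separate checks. No scaling, filter or fit other than omission moved a median of the 10 genes by more than the replicate SD of 0.10. Omitting 1 library moved 2 medians: 29b_4d against normal ranged from 0.02 to 0.32 and 29a_4d against 29b_4d from -0.32 to -0.13, with 0.32 and -0.32 both reached without 29b_4d replicate 1. Of 80 single differences, 28 had a sign change in at least 1 alternative, and the largest of these in the main fit was 0.27 with a library omitted and 0.02 otherwise. Where an omission left 1 library in a group, that library was assumed to vary like the others. Replicate numbers are not stated to pair the samples. The correlation of same-numbered deviations ran from -0.24 to 0.11 over pairs of groups, which cannot decide whether animals or batches were shared. A replicate block also called 0 of the 10 genes. Counts over all features depended more on the fit: from 9 to 64 for 29b_4d, 10 to 86 for NC-miR_4d, 17 to 276 for NC-miR_2d and 11 to 58 for 29a_4d against normal, 0 to 107 for NC-miR_4d against NC-miR_2d, 0 to 52 for 29a_4d and 0 to 46 for 29b_4d against NC-miR_4d, 0 to 7 for 29a_4d against 29b_4d, and 9 to 168 for the F test. The depth is unknown, so precision rests on the 2 libraries per group.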
